A study of Mus musculus with 6 samples.

Results

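Amino acid transporters of the Slc families carry amino acids across the plasma membrane and the lysosomal membrane, and 64 of the 19938 genes measured belong to these families by symbol. The members are all genes named alone by a probe set whose symbol opens with Slc1a, Slc3a, Slc6a, Slc7a, Slc36a, Slc38a or Slc43a followed by a number. They comprise 20 transporters of Slc6, 15 of Slc7, 11 of Slc38, 7 of Slc1, 4 of Slc36, 3 of Slc43 and the 2 heavy chains of Slc3. A further 2 genes met the rule by letters alone and encode no transporter: Slc7a6os, a protein-coding gene opposite Slc7a6, and Slc6a19os, a noncoding RNA opposite Slc6a19. Several Slc6 members and Slc43a3 carry monoamines, creatine, taurine or nucleobases, so the families reach beyond the amino acids that build protein.

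The cells were MC3T3-E1, a line of osteoblast precursors derived from newborn C57BL/6 calvaria, and RNA was measured on Affymetrix whole-transcript arrays. The differentiated group held 3 arrays of cells that had reached confluence and then spent 14 days in DMEM with 10% serum, dexamethasone at 0.1 µM, ascorbic acid-2-phosphate at 0.2 mM, β-glycerophosphate at 10 mM and sodium pyruvate at 1 mM. Undifferentiated cells, also on 3 arrays, were grown in α-MEM free of ascorbic acid and with 10% serum, and were not induced. The replicates are called independent without a statement of what separated them, so p-values measure the spread between these samples. Standard α-MEM contains several non-essential amino acids that standard DMEM lacks. Medium, confluence, time and induction compounds changed together and cannot be told apart.

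Each value is log2 expression relative to the median of its probe set over the 6 arrays. Arrays can therefore be compared for a gene, but levels cannot be compared between genes, and detection cannot be read. Differences are differentiated minus undifferentiated on the log2 scale with limma's moderated standard error (SE, 3 arrays per group), and a gene is said to have risen or fallen at an adjusted p under 0.05 over all genes. Fewer cells of a type and less RNA per cell cannot be told apart in such samples.

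Amino acid supply to osteoblasts feeds the synthesis of collagen, which is rich in glycine and proline. Slc7 light chains reach the cell surface only when joined to an Slc3 heavy chain, whereas Slc1, Slc6 and several Slc38 members work alone and draw on ion gradients. In mouse osteoblasts, Slc1a5 and Slc38a2 have been studied as routes for glutamine, asparagine and proline. When amino acids run short, the transcription factor ATF4 raises a number of these transporters together with enzymes such as asparagine synthetase.

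The transporters did not move as a block. In differentiated cells 11 members rose, 14 fell and 39 did not pass the test. The arginine and lysine transporter Slc7a2 and the lysosomal glutamine transporter Slc38a7 rose at least 2-fold. The cystine importer Slc7a11, the glycine transporter Slc6a9 and the large neutral amino acid transporter Slc7a5 fell at least 2-fold. The 25 members called were 39.1% of the 64, against 35.5% of all genes. By direction, 16.4% of all genes rose and 19.1% fell, and 2.53% rose and 2.28% fell at least 2-fold (4.81% in all), against 5 of the 64 members in all. These shares lie near the background, so the number of changed members is no result about the families. The median difference was 0.03 over the members and 0.02 over all genes. Groups did not overlap for 30 members, against 46.2% of all genes.

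**Figure D1:**
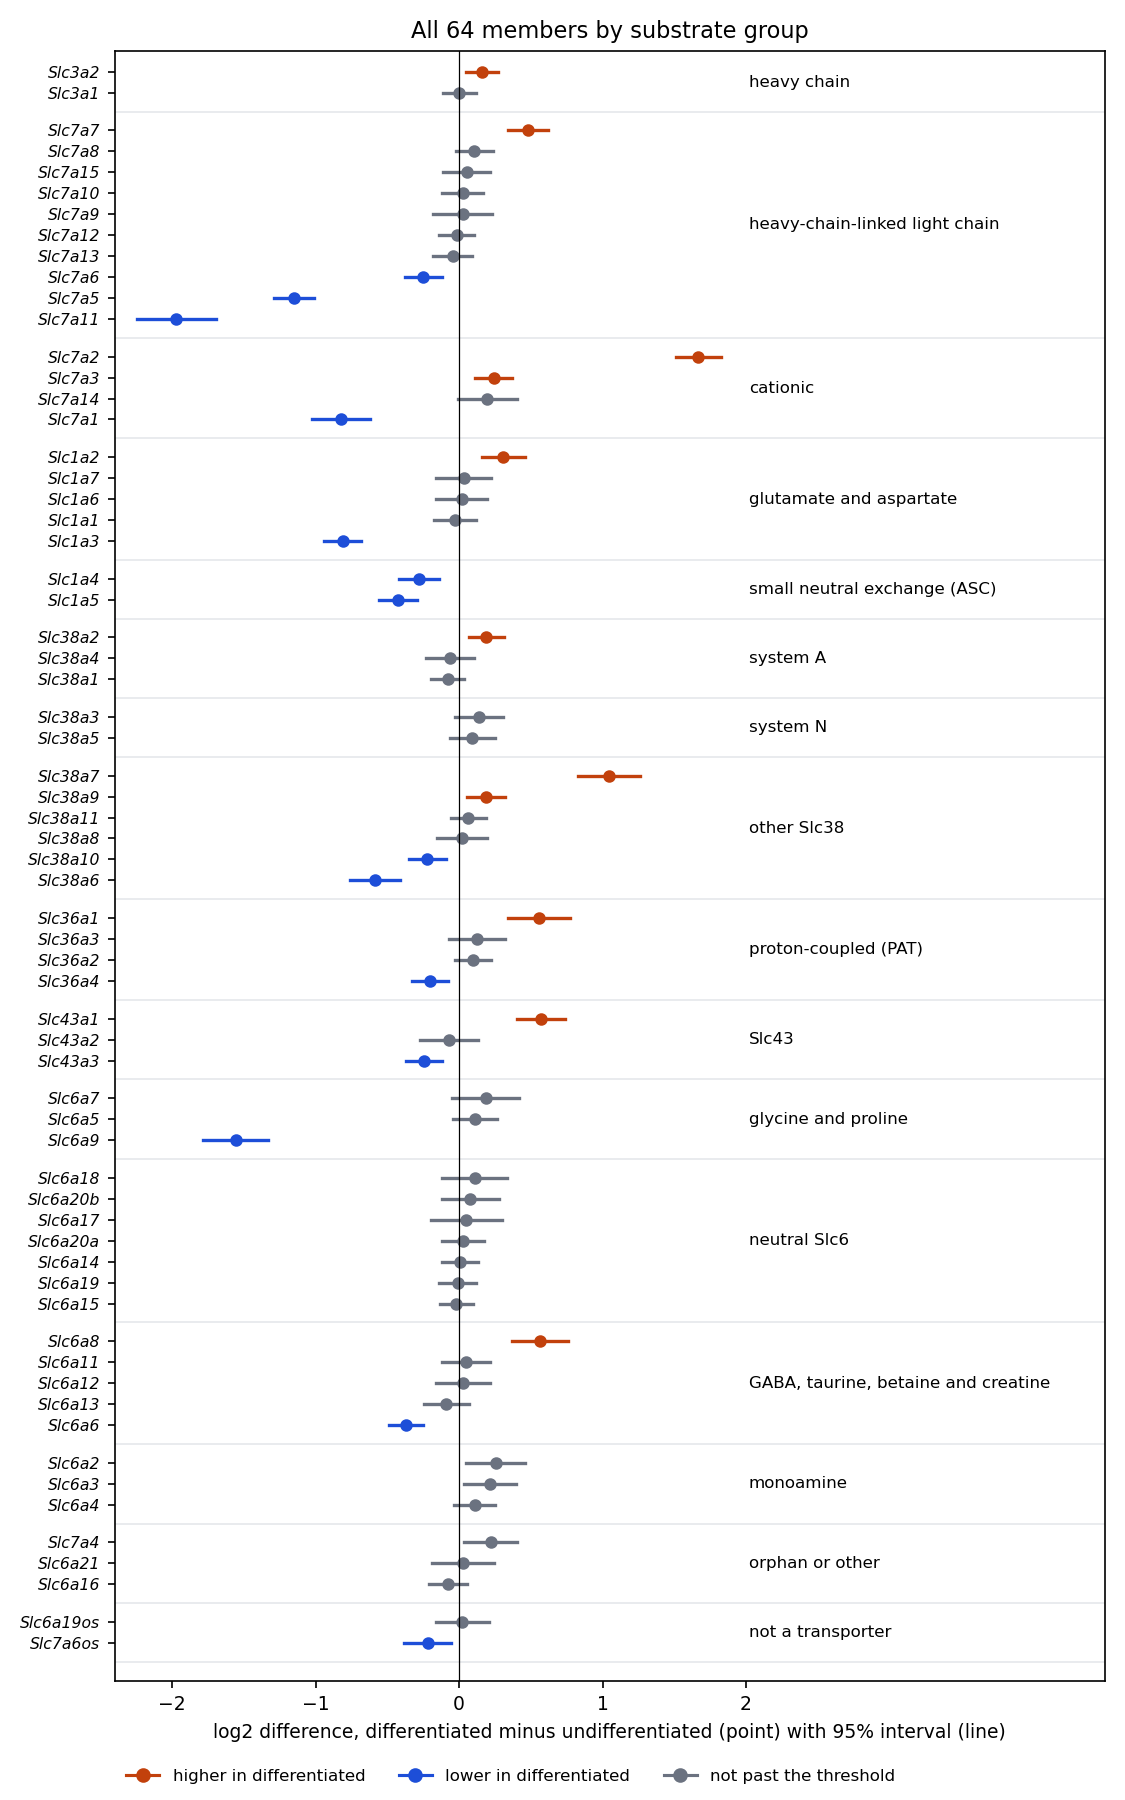
Log2 difference between differentiated and undifferentiated arrays (x axis, point) with limma's 95% interval (line) for each of the 64 members, listed by substrate group (3 arrays per group). The extremes are Slc7a2 at 1.67 and Slc7a11 at -1.97, and all 7 neutral Slc6 transporters lie close to 0.

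Light chains, most of which pair with the heavy chain Slc3a2 (4F2hc, also known as CD98), ran from -1.97 to 0.48. Slc7a11 (probe set 10498024), or xCT, brings in cystine in exchange for glutamate and so supplies cysteine for glutathione. Its centred log2 values were -1.08, -0.78 and -0.92 in the differentiated arrays and 1.25, 1.11 and 0.78 in the undifferentiated arrays. All differentiated arrays lay below all undifferentiated ones, a 3.92-fold fall (-1.97 ± 0.12, adjusted p = 2.59e-06) that ranked 117 among the falls of all 19938 genes. Slc7a5 (probe set 10582275), or LAT1, takes up leucine and other large neutral amino acids. It read -0.58, -0.51 and -0.68 in differentiated and 0.58, 0.51 and 0.60 in undifferentiated arrays, with the groups well apart and little spread within each (-1.15 ± 0.06, 2.22-fold lower, adjusted p = 1.03e-06). Slc7a6 (y+LAT2), which exchanges cationic for neutral amino acids, fell by less (-0.25 ± 0.06, adjusted p = 0.00769).

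The close relative Slc7a7, or y+LAT1, went the other way. Its values were 0.29, 0.33 and 0.17 in differentiated and -0.22, -0.26 and -0.17 in undifferentiated arrays, without overlap (0.48 ± 0.06, 1.40-fold higher, adjusted p = 2.34e-04). The other 6 genes of the light-chain group, which are Slc7a8 (LAT2), Slc7a9, Slc7a10, Slc7a12, Slc7a13 and Slc7a15, did not pass the test. Slc7a8 was at 0.11 with a 95% interval of -0.02 to 0.24 (adjusted p = 0.199), so the interval leaves room for a small rise but not for a fall like that of Slc7a5. In the light-chain group as a whole 1 gene rose, 3 fell and 6 did not pass. The share called was 40%, near the 35.5% of all genes.

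The shared heavy chain did not fall with its largest falling partners. Slc3a2 (probe set 10465772) read 0.10, 0.06 and 0.07 in differentiated and -0.07, -0.12 and -0.06 in undifferentiated arrays. The difference was small and close to the threshold (0.16 ± 0.05, 95% interval 0.04 to 0.27, adjusted p = 0.0359). The call was lost without any 1 array except undifferentiated replicate 3, with adjusted p up to 0.110. Slc3a1, the heavy chain that pairs with the kidney light chain Slc7a9, was at 0.00 ± 0.05 (adjusted p = 0.976).

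**Figure D2:**
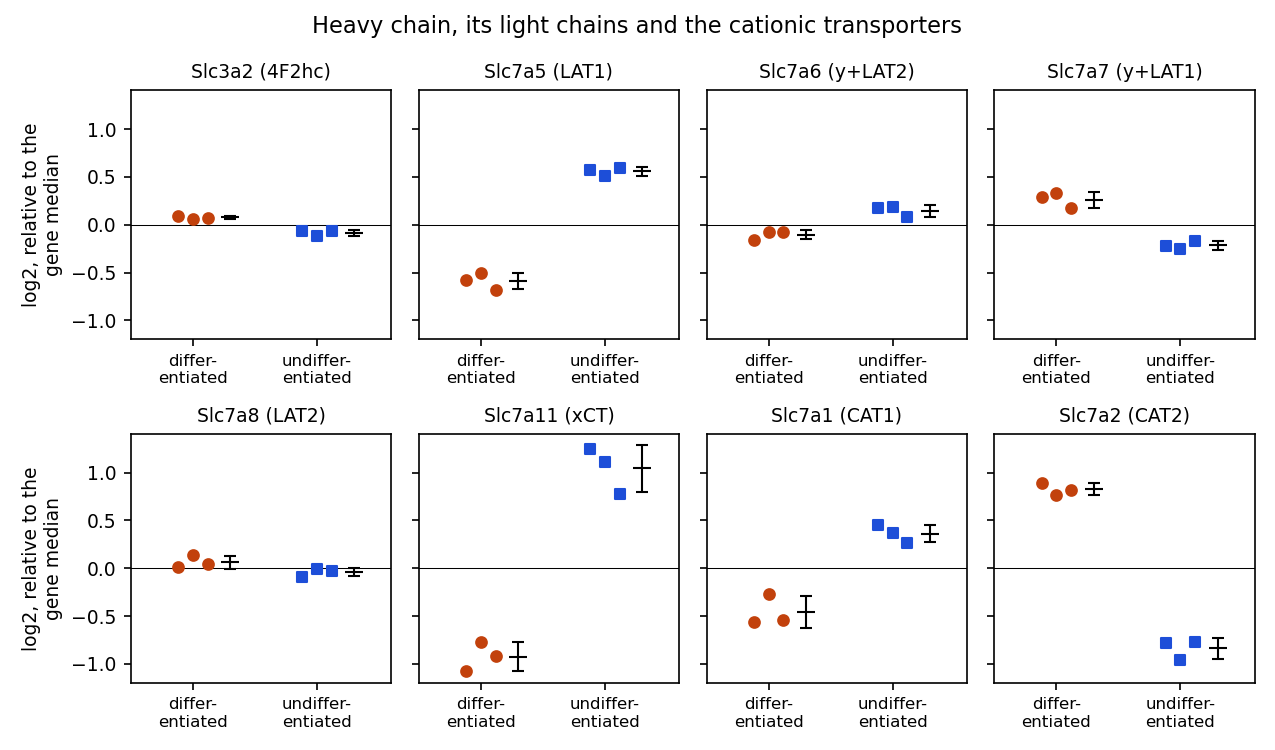
Centred log2 values of the heavy chain Slc3a2, light chains and a pair of cationic transporters in each array, with differentiated arrays left and undifferentiated arrays right in every panel, and the mean with SD over 3 arrays beside the points. Slc7a5 and Slc7a11 are low in differentiated arrays and Slc7a2 is high, while Slc3a2 and Slc7a8 lie within 0.14 of 0 in all 6 arrays.

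The promoter of Slc7a11 is shown because its window held the ATF response element core in 2 copies. Promoter windows ran from 250 bases before to 50 after each start in RefSeq (GRCm38.p6), and 47 of the 64 members had one. The motif searched was TGATGNAA on both strands, the core of the element bound by C/EBP and ATF factors, and capitals mark it below. The printed stretch is chr3:50443594-50443723 on the minus strand, from 110 bases before the start through the first 20 from the start on.

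Slc7a11: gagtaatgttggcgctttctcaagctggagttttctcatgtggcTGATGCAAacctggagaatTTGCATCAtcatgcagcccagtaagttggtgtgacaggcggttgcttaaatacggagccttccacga

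The copies begin 66 and 47 bases before the start and face in opposite directions. The core occurred in windows of 4.51% of the 27025 genes in the promoter table. Among members it occurred in 2 of 10 that fell (Slc7a11 and Slc1a4), 1 of 8 that rose (Slc7a7) and 1 of 29 not called (Slc6a21). With these numbers the match is a description of the letters only. The sites in Slc1a4 (chr11:20332699-20332728, minus strand, 4 bases before the start) and Slc7a7 (chr14:54417927-54417956, minus strand, 1 base before a start, with a further copy 141 bases before it) are printed for comparison, since these genes moved in opposite directions.

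Slc1a4: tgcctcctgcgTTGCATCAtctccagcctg

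Slc7a7: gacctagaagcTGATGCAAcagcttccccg

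The cationic group, as drawn here, held Slc7a1, Slc7a2, Slc7a3 and Slc7a14. Light chains that exchange cationic amino acids, such as Slc7a6, were counted in the light-chain group instead. Of the 4 genes 2 rose, 1 fell and 1 did not pass. This was 75% called in a small group, against 35.5% of all genes, and the share depends on how the group is drawn. Slc7a1 (CAT1, probe set 10535852) and Slc7a2 (CAT2, probe set 10571444) both take up arginine and lysine without a heavy chain. Slc7a2 read 0.90, 0.77 and 0.82 in differentiated and -0.78, -0.96 and -0.77 in undifferentiated arrays. The groups were far apart, and the difference of 1.67 ± 0.07 (3.18-fold higher, adjusted p = 2.55e-07) had the lowest adjusted p of any member. Slc7a1 read -0.57, -0.27 and -0.54 in differentiated and 0.46, 0.37 and 0.27 in undifferentiated arrays. Differentiated replicate 2 was the highest of its group but still below all undifferentiated arrays (-0.82 ± 0.09, 1.77-fold lower, adjusted p = 8.79e-05). Slc7a3 (CAT3) rose by a small amount (0.24 ± 0.06, adjusted p = 0.00962), and the CAT-like lysosomal gene Slc7a14 did not pass (0.20 ± 0.09, adjusted p = 0.128). Because levels are not comparable between genes, the data do not say which of these transporters was the more abundant in either group.

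**Figure D3:**
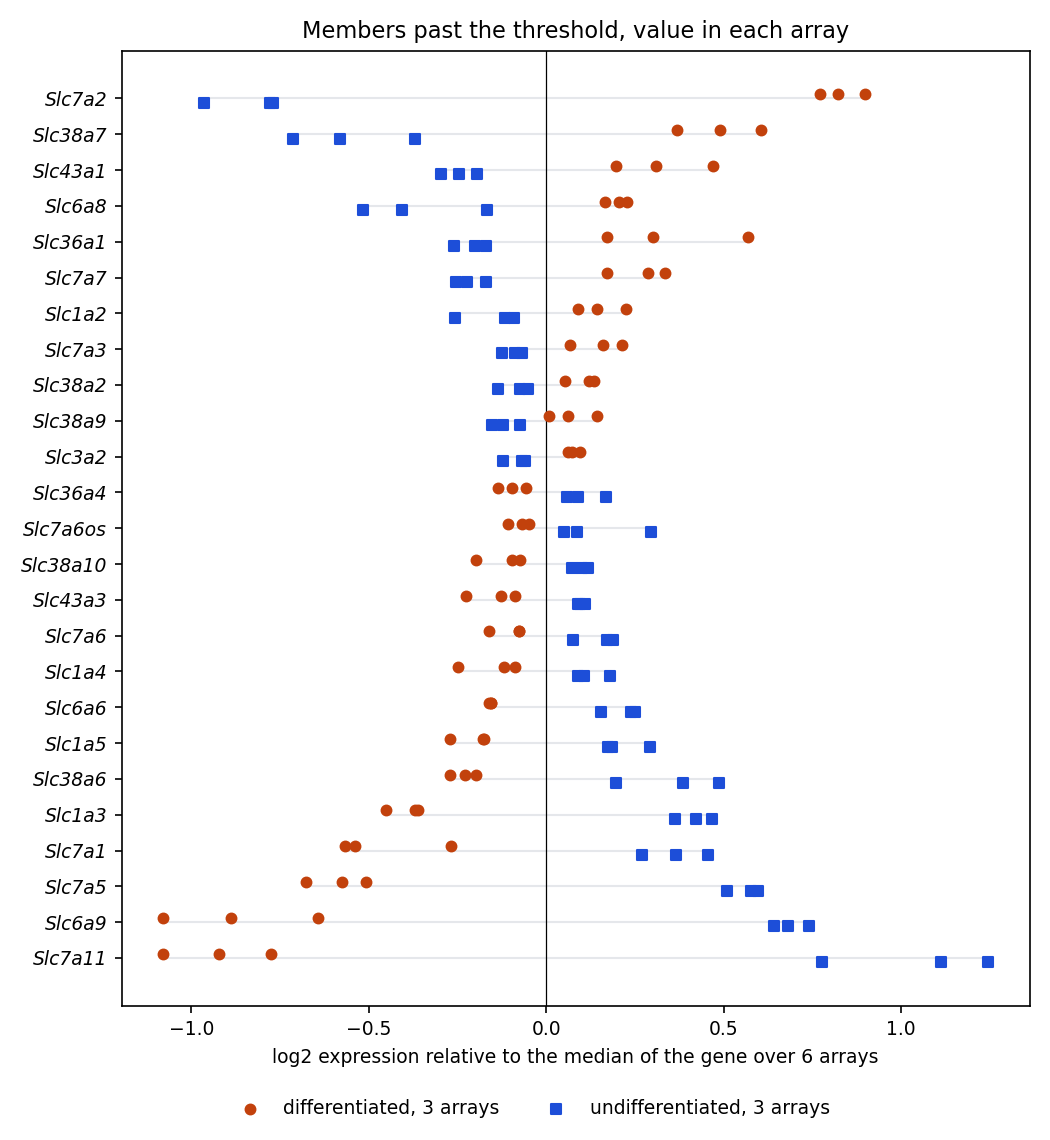
Centred log2 value (x axis) of the 25 members past the threshold in each of the 3 differentiated arrays (circles) and 3 undifferentiated arrays (squares), ordered from the largest rise at the top to the largest fall at the bottom. The 25 genes were picked by the test on these arrays, so the lack of overlap in each is no separate result. Groups also do not overlap in 46.2% of all genes. The gap is widest in Slc7a2 at the top and Slc7a11 at the bottom.

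Glutamate transporters also split, with 1 of 5 risen, 1 fallen and 3 not passing (40% called, against 35.5% of all genes). Slc1a3 (GLAST, probe set 10427590), a sodium-coupled glutamate and aspartate transporter of glia that has also been described in rat bone, read -0.37, -0.36 and -0.45 in differentiated and 0.42, 0.47 and 0.36 in undifferentiated arrays. The groups were far apart relative to their spread (-0.81 ± 0.06, 1.76-fold lower, adjusted p = 4.97e-06). The glial glutamate transporter Slc1a2 (GLT-1) rose (0.31 ± 0.07, adjusted p = 0.00525). Slc1a1, Slc1a6 and Slc1a7 did not pass and lay between -0.03 and 0.03.

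Both exchangers of small neutral amino acids fell, a group of only 2 genes, against 19.1% of all genes that fell and 35.5% called. Slc1a5 (ASCT2, probe set 10550332), which brings in glutamine, read -0.18, -0.17 and -0.27 in differentiated and 0.19, 0.29 and 0.17 in undifferentiated arrays (-0.42 ± 0.06, 1.34-fold lower, adjusted p = 3.99e-04). Slc1a4 (ASCT1), an exchanger of alanine, serine and cysteine, read -0.12, -0.25 and -0.09 in differentiated and 0.11, 0.18 and 0.09 in undifferentiated arrays (-0.28 ± 0.06, 1.21-fold lower, adjusted p = 0.00656). Neither gene's groups overlapped, although in Slc1a4 the nearest arrays, at -0.09 and 0.09, were close.

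Sodium-coupled neutral transporters of the Slc38 family at the plasma membrane moved little. Slc38a2 (SNAT2, system A) read 0.13, 0.05 and 0.12 in differentiated and -0.07, -0.14 and -0.05 in undifferentiated arrays. This was a small rise (0.19 ± 0.05, adjusted p = 0.0222), and the call was lost without differentiated replicate 1 or 3 or undifferentiated replicate 2 (adjusted p up to 0.0772). Slc38a1 (SNAT1), its neighbour in the genome, read -0.02, -0.08 and -0.07 in differentiated and 0.05, 0.00 and 0.01 in undifferentiated arrays, and did not pass (-0.08 ± 0.05, adjusted p = 0.283). Slc38a4 (SNAT4), on the other side of Slc38a2, was at -0.06 ± 0.07 (adjusted p = 0.565). The system N transporters Slc38a3 (0.14 ± 0.07) and Slc38a5 (0.09 ± 0.07) did not pass either.

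The group of other Slc38 transporters held 2 that rose, 2 that fell and 2 that did not pass, and in Slc36 1 rose, 1 fell and 2 did not pass. In these small groups 66.7% and 50% were called, against 35.5% of all genes. Slc38a7 (SNAT7, probe set 10580957), which exports glutamine and asparagine from lysosomes, read 0.49, 0.37 and 0.60 in differentiated and -0.37, -0.71 and -0.58 in undifferentiated arrays. The groups were clearly separate (1.04 ± 0.09, 2.06-fold higher, adjusted p = 3.06e-05). Slc36a1 (PAT1, probe set 10376216), a proton-coupled transporter of small amino acids in the lysosomal and plasma membranes, read 0.57, 0.17 and 0.30 in differentiated and -0.26, -0.20 and -0.17 in undifferentiated arrays. Its differentiated arrays spread more widely than its undifferentiated ones, with an SD of 0.20 against 0.05 (0.56 ± 0.09, 1.47-fold higher, adjusted p = 0.00147). Slc38a9, a lysosomal arginine sensor that signals to the growth kinase complex mTORC1, was given by 2 probe sets. Their mean read 0.14, 0.06 and 0.01 in differentiated and -0.12, -0.07 and -0.15 in undifferentiated arrays (0.19 ± 0.06, adjusted p = 0.0313). Tested alone, its probe sets were at 0.15 (adjusted p = 0.112) and 0.22 (adjusted p = 0.0446), and the call was also lost after cyclic loess scaling and in 4 of the 6 fits that left out 1 array.

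Windows of 9 members held an E-box, CACGTG, the letters bound by basic helix-loop-helix factors that include the lysosomal regulators of the MiT/TFE family. Of these members, only Slc36a1 and Slc38a7, which both rose, have their promoters shown. Each stretch runs from 110 bases before the start through the first 20 from the start on, at chr11:55204230-55204359 on the plus strand for Slc36a1 and chr8:95853472-95853601 on the minus strand for Slc38a7, with E-boxes in capitals.

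Slc36a1: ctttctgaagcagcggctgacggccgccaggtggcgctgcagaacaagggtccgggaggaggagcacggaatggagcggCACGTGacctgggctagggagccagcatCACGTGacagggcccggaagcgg

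Slc38a7: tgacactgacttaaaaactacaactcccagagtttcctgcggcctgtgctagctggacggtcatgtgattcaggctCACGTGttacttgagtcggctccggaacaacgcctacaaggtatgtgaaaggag

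Slc36a1 held 2 copies, 31 and 3 bases before the start, and Slc38a7 held 1 at 34 bases. The motif reads the same on both strands. It occurred in windows of 3 of 8 members that rose (Slc43a1 is the third), 0 of 10 that fell and 6 of 29 not called, against 8.09% of all genes in the promoter table. The paired repeats of the glucocorticoid response element, ACANNNTGT, which also reads the same on both strands, occurred in 1 of 8 that rose (Slc1a2), 0 of 10 that fell and 5 of 29 not called, against 7.90% of all genes. No matches of different motifs overlapped in the members' windows. The windows are short, and distant elements were not searched. As for the ATF core, these matches are a description of the letters only.

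Other members of Slc38 and Slc36 fell. Slc38a6 (SNAT6), whose substrates are less well defined, read -0.27, -0.20 and -0.23 in differentiated and 0.49, 0.20 and 0.38 in undifferentiated arrays, so the undifferentiated arrays were the more variable (-0.59 ± 0.08, adjusted p = 2.83e-04). Slc38a10 (-0.22 ± 0.06, adjusted p = 0.0127) and Slc36a4 (PAT4, -0.20 ± 0.05, adjusted p = 0.0185) fell by small amounts. Slc38a10 lost its call without differentiated replicate 3 (adjusted p = 0.0538). Slc36a4 lost it without that array (adjusted p = 0.0716) and without undifferentiated replicate 1 (adjusted p = 0.0661). Slc36a2, the genomic neighbour of Slc36a1, and Slc36a3, which adjoins Slc36a2, did not pass, at 0.09 and 0.12.

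Slc43 members, which carry large neutral amino acids or nucleobases without sodium, were mixed. Slc43a1 (LAT3, probe set 10473367), a carrier of branched-chain amino acids and phenylalanine, read 0.31, 0.20 and 0.47 in differentiated and -0.25, -0.30 and -0.20 in undifferentiated arrays. The groups did not overlap (0.57 ± 0.07, 1.49-fold higher, adjusted p = 2.94e-04). Slc43a3, a purine nucleobase transporter, fell (-0.24 ± 0.06, adjusted p = 0.00757), and Slc43a2 (LAT4) did not pass (-0.07 ± 0.09, adjusted p = 0.615). Among system L carriers of leucine, then, Slc7a5 fell, Slc43a1 rose, and Slc7a8 and Slc43a2 did not pass.

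Of the 20 transporters of Slc6, the largest family, 1 rose, 2 fell and 17 did not pass, which is 15.0% called against 35.5% of all genes. Among those that did not pass, the 95% intervals of Slc6a2 (0.05 to 0.46) and Slc6a3 (0.04 to 0.40) lay above 0. Slc6a9 (GlyT1, probe set 10507500), the sodium-coupled glycine transporter, had values of -0.64, -0.89 and -1.08 in differentiated and 0.74, 0.64 and 0.68 in undifferentiated arrays. The differentiated arrays were the more variable, with an SD of 0.22 that was the highest of any member in that group, and all lay below the undifferentiated ones (-1.56 ± 0.10, 2.94-fold lower, adjusted p = 3.29e-06). The other glycine and proline carriers, Slc6a5 (GlyT2) and Slc6a7 (the brain proline transporter), were at 0.11 ± 0.07 and 0.19 ± 0.10 and did not pass. Slc6a6, the taurine transporter, read -0.16, -0.16 and -0.15 in differentiated and 0.24, 0.15 and 0.25 in undifferentiated arrays, with the differentiated arrays almost equal (-0.37 ± 0.05, 1.29-fold lower, adjusted p = 4.70e-04).

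Slc6a8, the creatine transporter, rose. It read 0.17, 0.21 and 0.23 in differentiated and -0.17, -0.52 and -0.41 in undifferentiated arrays, with undifferentiated replicate 1 closest to the differentiated group (0.56 ± 0.09, 1.48-fold higher, adjusted p = 7.72e-04). Cyclic loess scaling gave a difference of 0.33, which did not pass (adjusted p = 0.0963). All 7 neutral amino acid transporters of Slc6, among them the gut and kidney carrier Slc6a19 and the imino acid carriers Slc6a20a and Slc6a20b, failed the test, with differences from -0.02 to 0.11. The monoamine transporters Slc6a2, Slc6a3 and Slc6a4 lay at 0.26, 0.22 and 0.11. Slc6a2, the noradrenaline transporter, was the member nearest the threshold from outside (adjusted p = 0.0571), and it passed with array weights (adjusted p = 0.0304) and without undifferentiated replicate 3 (adjusted p = 0.0157), as did Slc6a3, the dopamine transporter (adjusted p = 0.0427 and 0.0314), which also passed without differentiated replicate 2 (adjusted p = 0.0180). The member nearest from inside was Slc7a6os (-0.22 ± 0.07, adjusted p = 0.0418), which lost its call after cyclic loess and in 4 of the 6 fits that left out 1 array (adjusted p up to 0.119). Slc7a6os neighbours Slc7a6, and both fell, whereas none of the other 8 neighbouring pairs of members had both genes called.

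Other genes of the amino acid response were counted beside the transporters. Their list was chosen with earlier results of these data known, so its counts and median are a description only. Of 24 measured ATF4 targets and related genes outside the Slc families, 4 rose, 16 fell and 4 did not pass, with a median difference of -0.95. The share called was 83.3%, against 35.5% of all genes. The members' median was 0.03 and that of all genes 0.02. Members were picked by symbol and not sorted into ATF4 targets and others. The medians therefore do not say whether the transporters among such targets moved with the list. Trib3, a pseudokinase induced under amino acid shortage, was 6.73-fold lower (-2.75 ± 0.13, adjusted p = 4.76e-07). Cth, which makes cysteine from cystathionine, was 4.95-fold lower (-2.31 ± 0.11, adjusted p = 6.22e-07). Asparagine synthetase Asns averaged -1.14 ± 0.12 in differentiated and 1.06 ± 0.05 in undifferentiated arrays (SD, n = 3 each), a fall in limma's test (-2.19 ± 0.07, adjusted p = 6.62e-08). The stress factor Atf3, also an immediate early gene, rose (2.61 ± 0.11, adjusted p = 3.34e-07). Atf4 itself, named after its value was seen, did not pass (-0.15 ± 0.06, adjusted p = 0.0809) except without undifferentiated replicate 3 (-0.20, adjusted p = 0.0343), and its protein was not measured.

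Among 15 enzymes of glutamine, glutamate, proline and arginine, 4 rose, 7 fell and 4 did not pass (median 0.03). Some of these calls were weak, in genes named after their values were seen. The rises of Prodh and Arg1 lost the call in 8 and 4 alternative settings (limma's adjusted p up to 0.148 and 0.0879). The fall of Glud1 lost it in 7 (adjusted p up to 0.135). The share called was 73.3%, against 35.5% of all genes. Glutamine synthetase Glul rose 2.86-fold (1.52 ± 0.06, adjusted p = 1.61e-07). Ornithine decarboxylase Odc1 (-1.21 ± 0.08) and the mitochondrial alanine transaminase Gpt2 (-1.06 ± 0.08) fell beside Asns, with adjusted p of 8.93e-06 or lower. The enzymes share some fallen genes with the response list, Asns and Gpt2 among them, so the counts are not independent. Of 27 genes by which mTORC1 senses amino acids, 11 rose, 2 fell and 14 did not pass (median 0.14), with 48.1% called. The largest rises were in the folliculin complex that acts on Rag GTPases at the lysosome, Fnip2 (2.11 ± 0.10), Fnip1 (1.20 ± 0.06) and Flcn (1.18 ± 0.09), and in the sestrin Sesn1 (0.90 ± 0.06), with adjusted p of 1.07e-05 or lower. Another sestrin, Sesn2, named after its value was seen, fell (-0.80 ± 0.08, adjusted p = 6.39e-05) and was also counted in the response list.

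Of 12 amino acid and peptide transporters in other families 4 rose, 0 fell and 8 did not pass in limma's test. The share called was 33.3%, near the 35.5% of all genes. Among all genes 16.4% rose and 19.1% fell. Of the 12, 5 had an unadjusted p under 0.05 in limma's test, against 8584 of all 19938 genes, so this count is no result about the list. The median was 0.17. Ctns, the lysosomal cystine exporter, averaged 1.47 ± 0.07 in differentiated and -1.55 ± 0.15 in undifferentiated arrays (SD, n = 3 each). It was 8.11-fold higher (3.02 ± 0.08, adjusted p = 2.91e-08), a larger difference than that of any Slc member. The lysosomal transporters Slc66a1 for cationic amino acids (0.41 ± 0.09) and Slc15a4 for histidine and peptides (0.39 ± 0.06) and the vesicular glutamate transporter Slc17a8 (0.36 ± 0.07) also rose. With cyclic loess Slc66a1 was at 0.19 and did not pass (adjusted p = 0.0985). Among 9 partners and regulators of transporters, the glucocorticoid-induced kinase Sgk1 rose (2.90 ± 0.11), the arrestin relative Arrdc4 fell (-0.79 ± 0.06), and 7 did not pass. The share called here was 22.2%, against 35.5% of all genes.

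**Figure D4:**
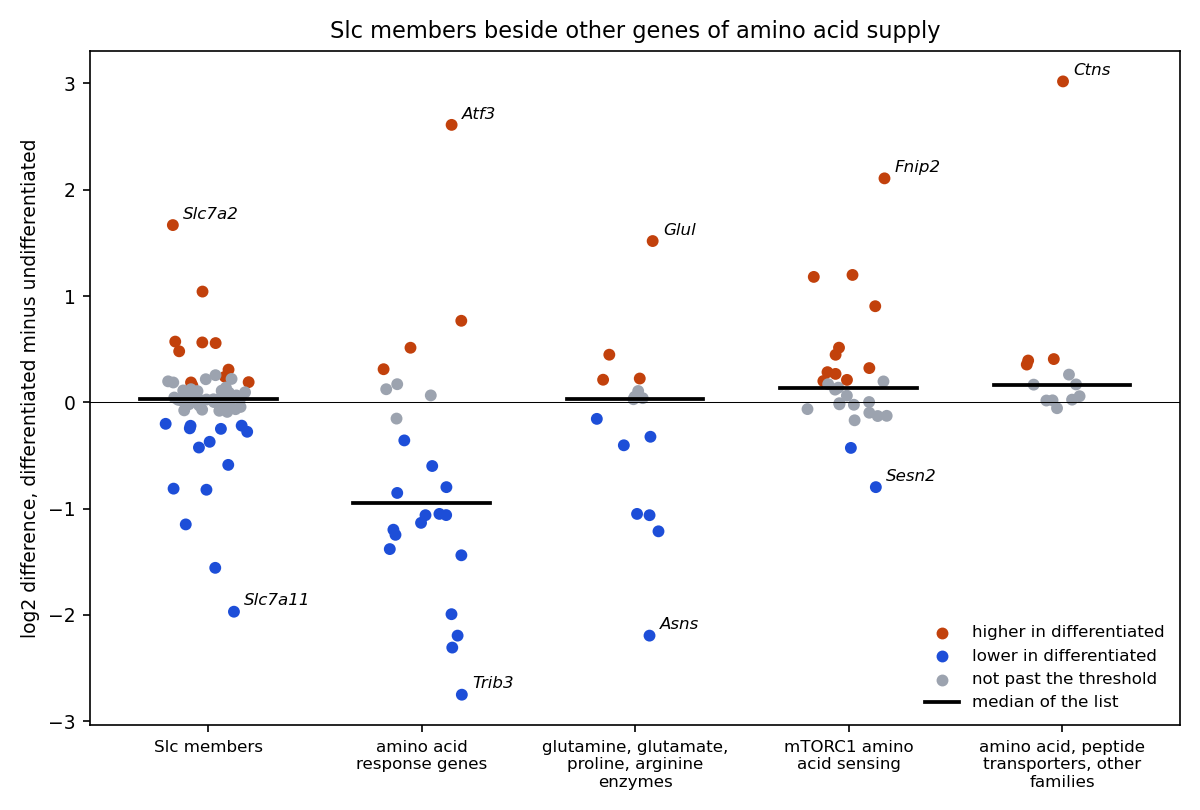
Log2 difference between differentiated and undifferentiated cells (y axis) of each Slc member and of each gene in 4 related lists, with bars at the list medians and the extreme called genes named. The response genes, a list chosen with earlier results of these data known, centre on -0.95 and reach -2.75 in Trib3. The Slc members, picked by symbol and not as ATF4 targets, centre on 0.03.

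Markers moved with these results as follows. All 4 measured proliferation markers fell, from -2.94 ± 0.08 in Mki67 to -1.88 ± 0.09 in Top2a, against 19.1% of all genes that fell. Of 7 osteoblast markers 4 rose, 2 fell and 1 did not pass (85.7% called, against 35.5% of all genes). Ibsp (3.12 ± 0.09) and Alpl (0.96 ± 0.08) rose and Col1a1 fell (-0.40 ± 0.07). The osteoblast factor Sp7, named after its value was seen, also fell (-0.40 ± 0.07, limma's adjusted p = 0.00257). Its call was lost in 1 alternative setting (adjusted p = 0.15). Among markers of other cells, 2 of 8 macrophage and osteoclast genes rose (Cd14 at 0.42 and Cd68 at 0.44), 2 of 6 adipocyte genes rose (Fabp4 at 0.46 and Cebpa at 0.22, the second not called without differentiated replicate 1 or 3 or undifferentiated replicate 2 or 3, with adjusted p up to 0.120), and of 7 neuron and glia genes Mbp rose (0.30) and Tubb3 fell (-0.97, and -0.63 with cyclic loess). The shares called in these lists of other cells were 25%, 33.3% and 28.6%, in that order, against 35.5% of all genes. Levels of the markers cannot be read from centred values, and their part in the transporter results was not tested. Within groups, the SD of a member over 3 arrays had a median of 0.07 in differentiated and 0.07 in undifferentiated cells. Undifferentiated replicate 3 had the largest residual SD over all genes (0.09), and without it Slc36a3, Slc6a2, Slc6a3, Slc6a18, Slc7a4 and Slc7a14 were also called higher, while Slc38a9 was not called.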

How the data were processed

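Total RNA from 6 samples (3 differentiated, 3 undifferentiated, groups and replicate numbers from the titles) was measured on 1-colour arrays. The authors deposited log2 values made with RMA, per the submitters' processing notes, with no version. The values show a further centring: the 6 values of each probe set are centred on a median that differs from 0 by at most 5e-07. No scanner files were used here, and higher values were taken as more RNA. The number of arrays limits the precision, and no filter on dim genes could be made.

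Of 28856 probe sets, 21789 name 1 gene, 1621 several and 5446 none, from the platform annotation. Symbols were updated by gene ID through RefSeq (GRCm38.p6), which matched 21698 and renamed no member. Probe sets naming 1 gene were averaged per gene (2 of 64 members had 2), giving 19938 genes. Differences were fitted with limma 3.58.1 in R 4.3.3 (lmFit, eBayes, two-sided, Benjamini-Hochberg over all genes, threshold 0.05). The fit was tested on simulated data. Lists are described by counts and medians alone. Substrate groups, lists and members were chosen with earlier results of these data known. Slc6a19os and Slc6a21 were given their groups after the annotation was read. Array values are given for the 12 members of largest difference and for a set fixed by name, and up to 4 genes per other list are named. Further genes are marked as named after their values were seen. Slc7a6, Slc7a8 and other members are given by their differences. Listed genes with no row were not used here. Neighbours are protein-coding genes adjacent in RefSeq, and no gene coordinates are printed since no source used here gives the array annotation's build. Alternatives were a replicate block, quantile, median and cyclic loess scaling, array weights, robust eBayes, other handling of several probe sets, and each array left out. Python 3.11.15 with pandas 2.3.3 and matplotlib 3.10.9 was used for sequences and figures.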

Additional observations from a re-analysis of the deposited data

How the results depend on the processing

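Of the 25 called members, 18 kept the call in every one of the 14 alternative settings that tested them and 7 lost it in at least 1 (Slc3a2, Slc6a8, Slc36a4, Slc38a2, Slc38a9, Slc38a10 and Slc7a6os). No member changed sign with a call in either setting. A further 6 gained a call in some setting. Deviations of same-numbered samples from their group means correlated at 0.00, 0.07 and 0.16, and not every sample correlated best with its own number, so the numbers were not taken to pair the samples. With the replicate number as a block, 0 Slc3 genes, 3 Slc6 genes and 2 monoamine transporters rose: Slc3a2 was not called (adjusted p = 0.0599), and Slc6a2 (adjusted p = 0.0303) and Slc6a3 (adjusted p = 0.0478) were. After cyclic loess 0 Slc6 genes, 1 of the other Slc38 group, 0 of the GABA, taurine, betaine and creatine group and 2 transporter partners rose, while 0 of the non-transporters and 1 osteoblast marker fell. With array weights 3 Slc6 genes, 2 monoamine transporters and 1 orphan rose. With the lowest-numbered probe set, 1 of the other Slc38 group rose. The count was also 1 with only genes of 1 probe set, where Slc38a9, which has 2, was not tested. The block changed no other count by over 1.5 times. Leaving out each array gave 0 to 1 rises in Slc3, 1 to 2 in Slc36, 1 to 2 in Slc38, 1 to 4 in Slc6, 3 to 5 in Slc7, 0 to 1 in system A, 1 to 2 in other Slc38, 0 to 2 in monoamine, 0 to 1 in neutral Slc6 and 0 to 1 in orphan genes. It gave 1 to 2 rises in adipocyte markers, 4 to 7 in transporters of other families, 2 to 3 in enzymes and 1 to 2 in partners. Falls ranged from 0 to 1 in Slc36, 1 to 2 in Slc38 and other Slc38, and 0 to 1 in non-transporters. Without undifferentiated replicate 3, 4 Slc6 and 5 Slc7 genes rose and 7 transporters of other families. All other counts stayed within 1.5 times. The absence of levels and the 3 arrays per group limit what small differences can show.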
